A study of Mus musculus with 15 samples.

Results

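The cytosolic ribosomal protein genes encode the proteins of the large (Rpl) and small (Rps) subunits of the cytoplasmic ribosome. They were taken as every gene symbol of that form (Rpl or Rps with its number, or Rplp0 to Rplp2) that the array annotation gives alone to a probe set; kinases of the S6 family do not fall under the rule. This gave 43 genes on 69 probe sets, 23 genes of the large and 20 of the small subunit, among 15964 genes in all. Where a gene had several probe sets, the one whose mean over the treatments was highest stood for it. The RNA came from A.E7, a clone of mouse CD4 helper T cells, so that a single clone stands for the cell type, and each RNA was a pool of cells taken at 2, 4 and 6 h. The 5 treatments were mock stimulation (mock); stimulation through the T cell receptor with anti-TCR and no inhibitor (anti-TCR), which the array titles call anergic; anti-TCR with CSA, cyclosporin A, which blocks the phosphatase calcineurin (CSA); anti-TCR with a PKC inhibitor that the labels do not name further (PKCi); and anti-TCR with rapamycin, PD98059 and SB203580, inhibitors of mTOR, MEK and p38 in that order (Combo). Every treatment was hybridised once to each of chip types A, B and C, which made 15 arrays. With no replicate array, no p-value could be given.

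Each ribosome holds 1 copy of nearly every one of these proteins, and their mRNAs are among the most abundant of a cell. The mRNAs of ribosomal proteins carry a 5′ terminal oligopyrimidine (TOP) tract, a C followed by a run of C and T at the very start, through which their translation depends on mTOR signalling. In resting T cells translation is low, and stimulation of the T cell receptor raises the making of ribosomes over the hours that follow. An array reads the amount of an mRNA and not its translation.

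The start of the transcript is shown for 4 measured genes whose RefSeq start site lies on such a tract, and for 2 measured genes whose listed start does not, because the tract is the feature that ties these mRNAs to mTOR, a target of the Combo treatment. Each line holds 60 bases of GRCm38.p6 in the direction of the gene, 35 before the listed start and 25 from it on, and capitals mark the tract.
Rplp2, chr7:141447616-141447675, plus strand: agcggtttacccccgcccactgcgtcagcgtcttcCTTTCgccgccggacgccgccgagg
Rps10, chr17:27635220-27635279, minus strand: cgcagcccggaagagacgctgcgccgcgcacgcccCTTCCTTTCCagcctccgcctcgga
Rps18, chr17:33955641-33955700, minus strand: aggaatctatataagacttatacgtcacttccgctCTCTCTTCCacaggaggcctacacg
Rps27, chr3:90213624-90213683, minus strand: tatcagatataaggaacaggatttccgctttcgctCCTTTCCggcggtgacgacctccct
Rplp0, chr5:115559432-115559491, plus strand: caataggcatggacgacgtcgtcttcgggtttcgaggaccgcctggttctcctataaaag
Rps4x, chrX:102189367-102189426, minus strand: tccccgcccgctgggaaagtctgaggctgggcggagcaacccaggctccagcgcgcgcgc

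The RefSeq table held 46 promoters of 36 of the 43 genes. A listed start on C followed by at least 4 bases of C or T stood in 8 of the 46, or 17.4%, against 2.51% of all 32851 promoters of the same length. Of the measured genes, Rplp2, Rps10, Rps18 and Rps27 had such a start. The listed starts are annotated positions, so a tract that begins some bases away was not counted. Over the whole promoters of 300 bases, 250 before the start and 50 from it on, and counting both strands, TTCCGG (the core of the ETS factor motif) stood in 45.7% of the genes' promoters against 14.9% of all. GCCATC (YY1) stood in 26.1% against 14.1%, CTTTCC in 43.5% against 26.6%, GGGCGG (the GC box) in 56.5% against 35.7% and TATAAA in 8.7% against 13.6%. These letters can overlap the tract and each other, since TTCC ends one motif and opens another. The members' promoters thus carried the ETS letters and the pyrimidine start more often than promoters at large, and the TATA letters less often, as counts without a test.

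Of the 43 genes, 26 were measured, which here means that the brighter of the arrays reached 4 times the floor. The floor is the median over the 5 arrays of a chip type (51.1 on A, 69.5 on B and 55 on C), and it replaced lower values in log2 ratios. The 26 were 12 genes of the large and 14 of the small subunit; 19 were read on chip type A, 7 on C and none on B, and 23 reached the minimum on every array. The other 17 genes stayed dim, and 8 of them lay below the floor on every array (Rpl35a, Rpl39, Rpl39l, Rpl3l, Rps15, Rps15a, Rps4l and Rps6). Rps6, the substrate of the S6 kinases, read between 27.2 and 31.3 on chip type C, so its mRNA was not measured here. The other dim genes were Rpl10l, Rpl22, Rpl27, Rpl32, Rpl37, Rpl38, Rpl7l1, Rps27l and Rps29. The 6 paralogs whose symbol ends in l or l1 (Rpl10l, Rpl39l, Rpl3l, Rpl7l1, Rps27l and Rps4l, the last listed as a transcribed pseudogene) were all among the genes that did not reach the minimum. Apart from these paralogs, proteins of the ribosome are needed in every cell, so a dim probe set of their genes does not show a missing mRNA. The further probe sets of measured genes gave the same picture: Rps20 read 11767.9 to 17144.2 on its chip C probe set and at most 19.0 on its other probe sets, and 4 further probe sets of Rps4x, whose best probe set read 2782.4 to 5308.7, stayed at or below 45.4. Of the 26 probe sets that are not a gene's best, 21 were dim and 5 bright. For 8 of the 26 measured genes the probe set name carries the suffix r, i, f or s, which marks probes that are shared between sequences or break a selection rule, and these genes are called suffixed here.

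The measured cells carried the markers of their label. Of 10 CD4 T cell markers on the arrays, 9 were measured (Cd3e, Cd3g, Cd3d, Cd4, Cd2, Cd28, Thy1, Zap70 and Cd247; Cd5 was dim). The summed intensity of all 10 was 13165 in mock, 11471.9 with anti-TCR, 9039.2 with CSA, 8567.3 with PKCi and 11114.1 with Combo. None of 3 CD8 and NK (Cd8a, Cd8b1 and Ncr1), 4 B cell and 1 erythroid marker was measured. Of 5 macrophage and dendritic cell markers only Cd14 was. The NK lectin receptor genes Klrd1 and Klrc1 were not on these lists and were bright on chip type A, with means of 2434 and 1364. The tables give arrays that had been scaled already: the trimmed means of the 5 arrays of chip type A lay within 0.232% of each other, those of B within 0.242% and those of C within 0.153%.

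On chip type A, in the deposited values, most ribosomal protein mRNAs read highest in mock cells and lowest with the PKC inhibitor; after quantile normalization PKCi was the lowest array for 5 of 19 and anti-TCR for 7. Rps4x, a small subunit protein, read 5308.7 in mock, 4123.2 with anti-TCR, 3284.3 with CSA, 2782.4 with PKCi and 3640.6 with Combo. Rps3a1, also of the small subunit, read 4888.1, 3585.0, 3379.9, 2821.1 and 3578.3 in the same order. Both were highest in mock, and their PKCi value was the lowest of the 5. Rps10 read 4914.7, 3672.4, 3220.6, 2502.2 and 3316.2. Rps7 read 3864.4, 2853.6, 2029.6, 1780.5 and 2252.5. For Rpl8, which sits in the large subunit, the values were 4631.6, 3234.9, 2264.8, 1853.0 and 1882.1. All of these kept the order of mock above anti-TCR above CSA above PKCi. Counted over chip type A, the mock array was the highest of the 5 for 15 of the 19 measured genes, against 29.7% of all genes measured on that chip type, and the PKCi array was the lowest for 15 of 19, against 18.5%. The median of the 19 genes was 3065 in mock, 2460 with anti-TCR, 1896 with CSA, 1826 with PKCi and 2007 with Combo.

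The top of the chip A arrays moved in the same order as these genes. The 99.5th percentile of all values of the array was 3566 in mock, 2989 with anti-TCR, 2535 with CSA, 2199 with PKCi and 2730 with Combo, and the highest single value was 5805.6, 4587.2, 3582.9, 3095.8 and 3941.1. The members were part of that top: the highest value of the PKCi array, 3095.8, was Rpl7 itself. The log2 ratio of the 99.5th percentile was -0.25 between anti-TCR and mock; set against anti-TCR, CSA gave -0.24, PKCi -0.44 and Combo -0.13. For the 19 genes on the same arrays the median log2 ratios were -0.42, -0.23, -0.49 and -0.15. The part of the arrays' upper range in the members' order was not tested. In RNA of a whole culture that was scaled to a common level, fewer cells that hold an mRNA and less of that mRNA per cell cannot be told apart.

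The 7 genes read on chip type C did not share the order. The mock array was the highest for 0 of 7 (21.2% of all genes measured on chip type C) and the lowest for 3 (20.5%). Anti-TCR was the highest for 3 (26.8% of all), Combo for 3 (15%), and PKCi was the lowest for 4 (21.5%). Rps20, a small subunit protein read on an f-suffixed probe set, was 15879.9 in mock, 17144.2 with anti-TCR, 14148.5 with CSA, 11767.9 with PKCi and 15975.5 with Combo. Rplp2, a protein of the stalk that recruits elongation factors (i-suffixed), read 4085.4, 4866.7, 5280.2, 6087.4 and 8024.8, so that mock was the lowest and Combo the highest. Rps26 (f-suffixed) read 918.3, 847.4, 1164.1, 821.7 and 1505.6, also highest with Combo. The upper end of the chip C arrays moved less, with log2 ratios of the 99.5th percentile of 0.11, -0.08, -0.13 and -0.12.

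**Figure D1:**
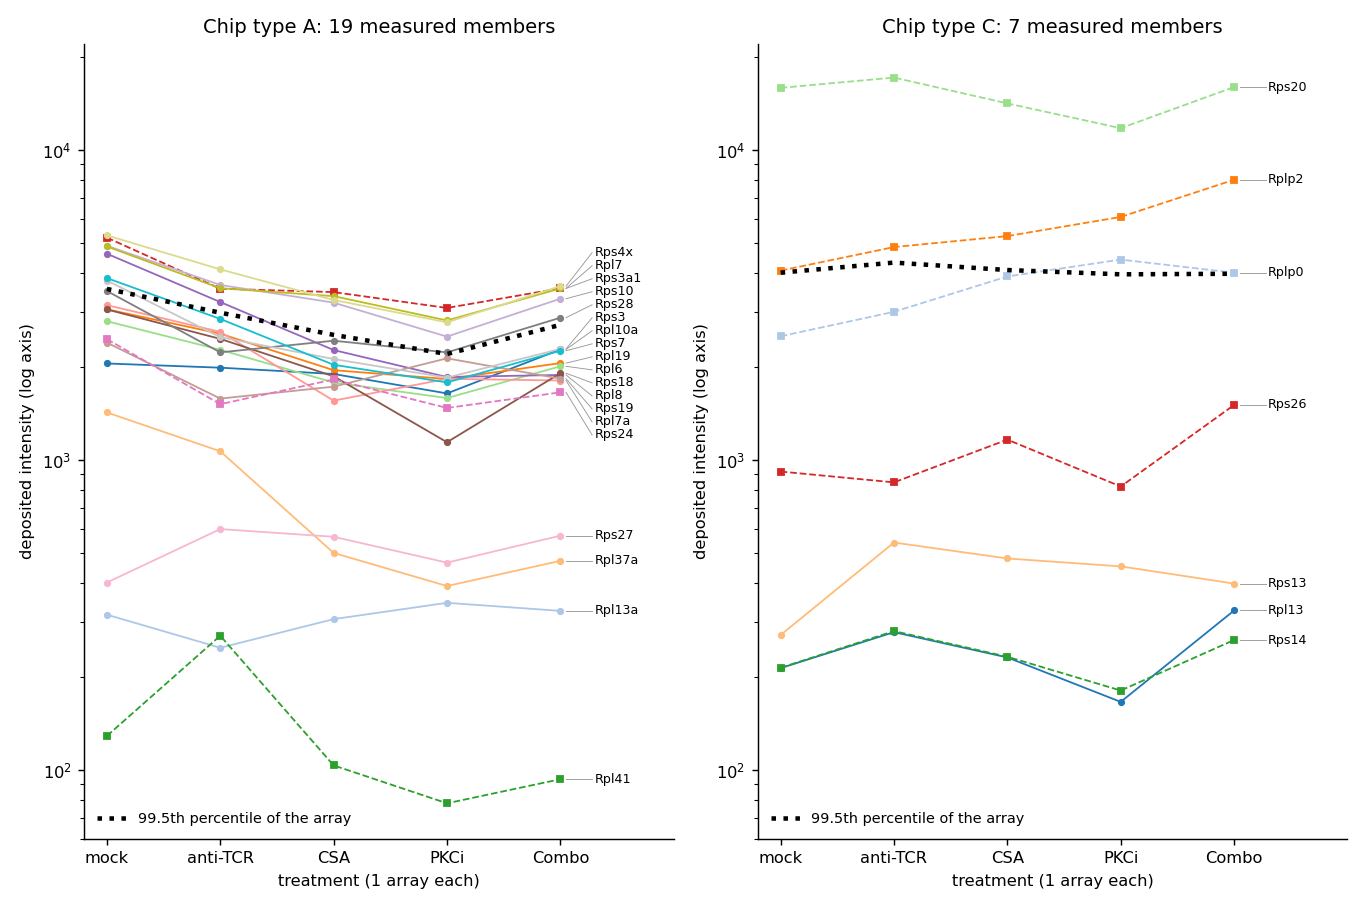
Deposited intensity (log axis) of the 26 measured ribosomal protein genes on the 5 arrays of chip type A (19 genes) and chip type C (7 genes), 1 array per point; squares with dashed lines are suffixed probe sets, and the dotted black line is the 99.5th percentile of all values of each array. On chip type A mock is the highest array for 15 of 19 genes and PKCi the lowest for 15 of 19, and the percentile moves from 3566 to 2199 between those arrays; on chip type C mock is the highest for 0 of 7.

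For anti-TCR against mock, 18 of the 26 genes read lower, against 54.5% of all 5803 genes measured. The median log2 ratio of the 26 was -0.31, beside -0.08 over all genes measured. A change was counted from 2-fold, and 1 gene was higher (background 11.4% of all measured genes) and 0 lower (background 13.9%). The gene that passed was Rpl41, a very small and basic protein of the large subunit read on an f-suffixed probe set. It read 128.8 in mock and 271.2 with anti-TCR, and was 2.11-fold higher (log2 ratio 1.07). Rpl41 reached the chip A minimum of 204.4 on the anti-TCR array alone, so it entered all 4 comparisons through the array on which it was high, and its calls rest on that 1 value. Rps13, a small subunit protein on chip type C, stood just short of it: it read 272.7 in mock and 541.9 with anti-TCR, 1.99-fold higher (0.99). Rps27, whose start carries the tract of 7 pyrimidines printed above, read 402.7 and 598.9 (0.57), Rps14 213.7 and 280.7 (0.39) and Rpl13 213.2 and 278.5 (0.39). The mock values of Rps14 and Rpl13 lay under the chip C minimum of 220, so both entered this comparison through their higher anti-TCR value. At the other end, Rps24 read 2456.1 in mock and 1514.8 with anti-TCR (-0.70, r-suffixed), Rps28 3511.1 and 2225.8 (-0.66), Rps3 3794.5 and 2492.7 (-0.61), Rps19 2393.1 and 1578.9 (-0.60) and Rpl7 5218.7 and 3571.3 (-0.55, s-suffixed). Rps3 also serves in DNA repair, and Rps19 is the gene most often mutated in Diamond-Blackfan anaemia. The probe sets of Rpl7 and Rps24 carry the same source accession, so their values may not be those of separate mRNAs.

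The direction against mock followed the chip type. On chip type A 17 of 19 genes read lower with anti-TCR, against 56.5% of all genes of that chip type. The median of the 19 was -0.42, while that of all genes was -0.14. On chip type C 1 of 7 read lower (50.9% of all its genes), and the median was 0.26, against -0.01 for all its genes. The 15 chip A genes with a mean of at least 1000 all read lower, from -0.70 to -0.05 (Rpl10a). Besides Rpl41, the chip A genes with a lower mean were Rpl37a (mean 771.8), Rps27 (520.8) and Rpl13a (308.9), and their log2 ratios were -0.42, 0.57 and -0.35. Genes of the small subunit had a median of -0.39 and those of the large subunit -0.27. Suffixed genes stood at 0.18 and the others at -0.36; 5 of the 8 suffixed genes are on chip type C. Of the 3 suffixed genes on chip type A, Rpl7 and Rps24 read lower and Rpl41 higher. Both unsuffixed genes on chip type C, Rpl13 and Rps13, read higher, but Rpl13 entered only through its higher anti-TCR value.

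Level and direction were also set beside each other for the rest of chip type A. Among genes with a mean of at least 2000, the 12 ribosomal protein genes had a median of -0.43 for anti-TCR against mock and the 83 other genes -0.31, with 59 of the 83 below 0. Against anti-TCR the same 12 genes read -0.34 with CSA, -0.51 with PKCi and -0.18 with Combo, and the 83 others -0.07, -0.31 and -0.08. Between 1000 and 2000 the 251 other genes stood at 0.02, 0.03, -0.13 and 0.01. The 3 ribosomal protein genes of that range had medians of -0.60, 0.13, -0.04 and 0.20, above the other genes in each inhibitor comparison. The lower values with anti-TCR and with PKCi were thus shared by other genes of the highest level. At that level alone, the median of the ribosomal protein genes lay below that of the others in each comparison.

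**Figure D2:**
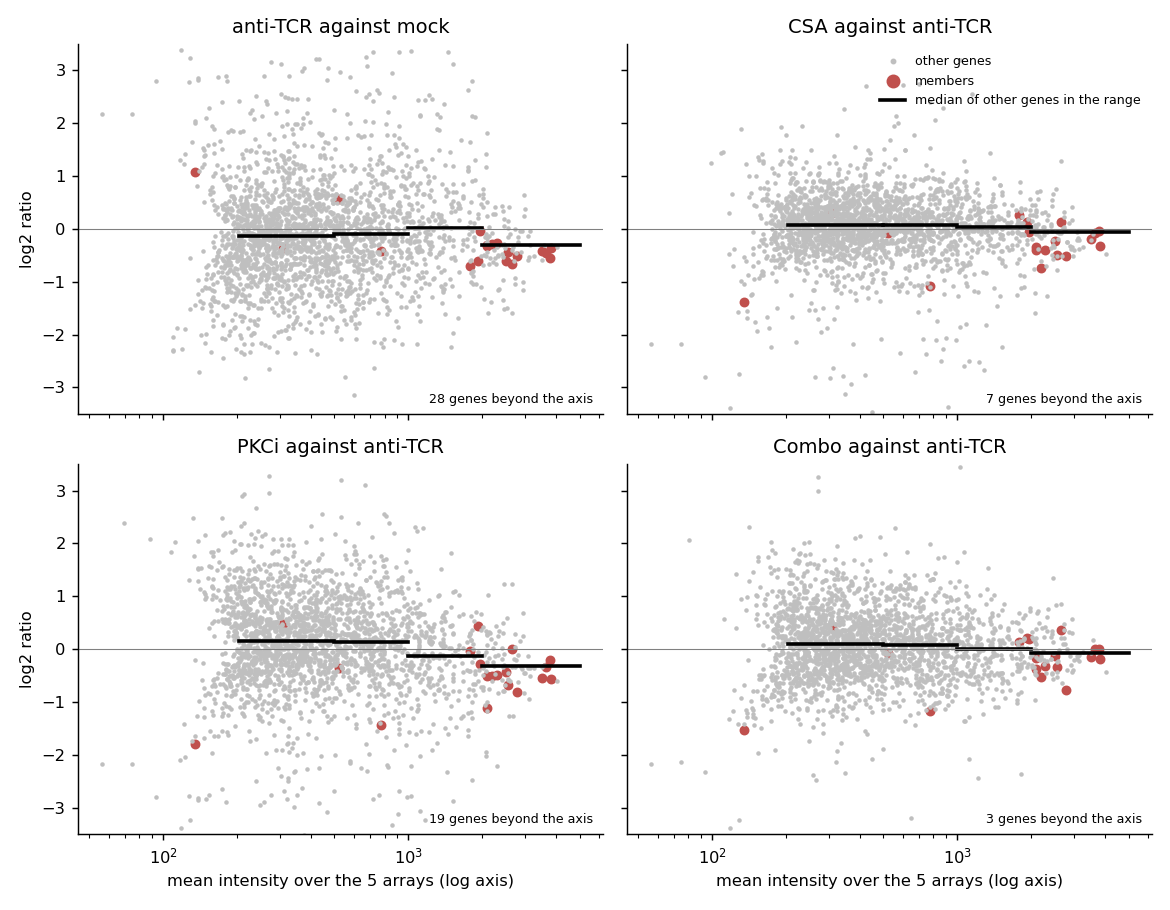
Log2 ratio of each measured gene on chip type A against its mean intensity over the 5 arrays (log axis), 1 panel per comparison; grey points are other genes, red points the 19 ribosomal protein genes, and black bars the median of the other genes in a range of level (the top range starts at 2000). In the top range the other genes sit at -0.31 for anti-TCR against mock and at -0.31 for PKCi against anti-TCR, and the ribosomal protein genes at -0.43 and -0.51.

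With CSA, 19 of the 26 genes read lower than with anti-TCR alone, at a median of -0.21 beside 0.03 for all 5453 genes measured. The 3 inhibitor comparisons and the comparison with mock all use the same anti-TCR array, so their values are not independent of each other. None was 2-fold higher (background 4.84%) and 2 were 2-fold lower (background 5.34%). Rpl41 read 271.2 with anti-TCR and 103.5 with CSA, 2.62-fold lower (-1.39). Rpl37a, a zinc-binding protein of the large subunit, read 1424.6 in mock, 1067.4 with anti-TCR, 501.7 with CSA, 392.3 with PKCi and 473.0 with Combo, so that the inhibitor arms all lay under both other arrays; it was 2.13-fold lower with CSA (-1.09). Rpl7a followed with 2592.0 and 1554.9 (-0.74), then Rpl8 at -0.51 and Rps7 at -0.49. Rps26 (0.46, f-suffixed), Rplp0 (0.38, f-suffixed), Rpl13a (0.31), Rps24 (0.26, r-suffixed) and Rps19 (0.13) read higher than with anti-TCR alone, none by 2-fold. Chip type A gave a median of -0.23 and chip type C -0.17, so here both chip types stood on the same side, with 15 of 19 and 4 of 7 genes below 0.

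With PKCi, 22 of the 26 genes read lower, against 48.4% of all 5793 genes measured. The median of the 26 was -0.46, beside 0.03 for all genes measured. The deposited values put this median below those of the other comparisons, but with arrays scaled to equal 99th percentiles it was -0.095, above -0.17 against mock and -0.11 with CSA, and quantile normalization gave -0.14. None was 2-fold higher (background 14.3%) and 3 were 2-fold lower (background 9.75%). Rpl41 read 78.1 with PKCi, 3.47-fold lower (-1.80), and Rpl37a was 2.72-fold lower (-1.44). Rps18, a protein of the small subunit head, read 3061.5 in mock, 2460.3 with anti-TCR, 1863.0 with CSA, 1141.9 with PKCi and 1906.5 with Combo. Its PKCi value stood apart below the other arrays and was 2.15-fold lower than with anti-TCR (-1.11). Rpl8 (-0.80) and Rpl13 (-0.75) came next, and Rpl13, at 165.9 with PKCi, entered through its higher anti-TCR value. The genes above 0 were Rplp0 at 0.56 (f-suffixed), Rpl13a at 0.48, Rps19 at 0.43 and Rplp2 at 0.32 (i-suffixed). Rps19 read 2393.1, 1578.9, 1725.3, 2129.5 and 1831.1 over the 5 treatments, so that its lowest array was anti-TCR. On chip type A the median was -0.49 while all genes of that chip type stood at 0.09, with 17 of 19 below 0 against 45.7% of all. On chip type C the median was -0.26, with 5 of 7 below 0 against 51.7% of all.

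With Combo, the treatment that holds rapamycin, 16 of the 26 genes read lower than with anti-TCR alone, against 48.6% of all 5621 genes measured. The median of the 26 was -0.10, beside 0.02 for all genes measured. The members' median turned to 0.027 when arrays were scaled to equal 99th percentiles and stood at -0.026 with median scaling. None was 2-fold higher (background 7.95%) and 2 were 2-fold lower (background 5.46%). These were Rpl41, 93.4 against 271.2 with anti-TCR and 2.90-fold lower (-1.54), and Rpl37a, 2.26-fold lower (-1.17). Rpl8 read -0.78 and Rpl7a -0.52, and Rps13, which had been among the highest against mock, read 541.9 with anti-TCR and 399.5 with Combo (-0.44). Rps26 (0.83, f-suffixed) and Rplp2 (0.72, i-suffixed) were the highest, ahead of Rplp0 (0.42, f-suffixed), Rpl13a (0.40) and Rps28 (0.37). Of the 4 measured genes with a pyrimidine start, Rplp2 thus read 0.72, Rps27 -0.07, Rps10 -0.15 and Rps18 -0.37, so that they stood on both sides of 0. Chip type A had a median of -0.15 and chip type C of 0.23.

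**Figure D3:**
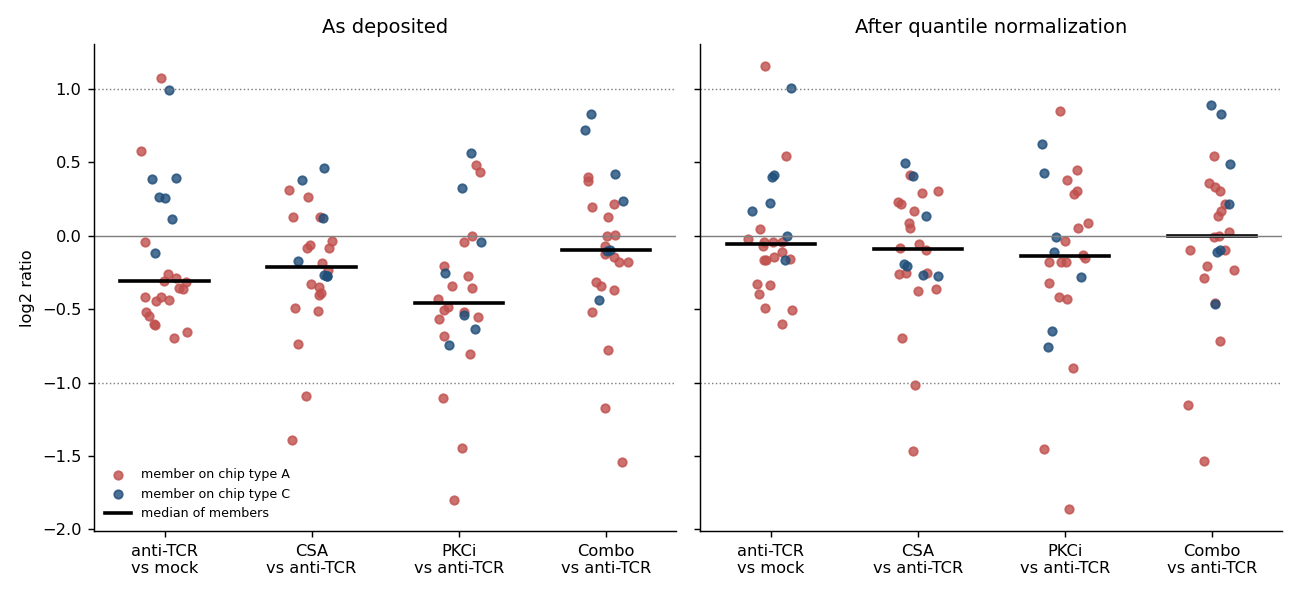
Log2 ratio of the 26 measured ribosomal protein genes in each comparison, as deposited (left) and after quantile normalization of the 5 arrays of each chip type (right); red points are genes on chip type A, blue points on chip type C, black bars the median of all 26, and dotted lines mark 2-fold. The medians of -0.31, -0.21, -0.46 and -0.10 on the left stand at -0.06, -0.09, -0.14 and 0.00 on the right (the Combo median turned to 0.027 with arrays scaled to equal 99th percentiles, not drawn), while Rpl37a, and Rpl41 through its single high anti-TCR value, stay beyond 2-fold in the inhibitor comparisons.

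After quantile normalization, which gives the arrays of a chip type one common distribution of values, the medians of the 26 members lay closer to 0. They were -0.057, -0.090, -0.14 and -0.0038, beside -0.075, 0.030, 0.0265 and 0.013 for all genes measured. Against mock the members thus no longer lay below all genes. The members' medians on chip type A became -0.15, -0.08, -0.15 and -0.01. There the mock array was the highest for 9 of 19 genes in place of 15 (28.8% of all genes of the chip type), and PKCi the lowest for 5 in place of 15 (18% of all). The array most often lowest was then anti-TCR, for 7 of 19 (29.4% of all). On chip type C the medians were 0.22, -0.19, -0.11 and 0.21, beside 0.26, -0.17, -0.26 and 0.23 as deposited. Of single genes, Rpl37a was past 2-fold in the 3 comparisons with an inhibitor, Rps13 passed against mock, and Rps18 with PKCi no longer did (-0.90). Rpl41 was past 2-fold in all 4, through the same single anti-TCR value as before.

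The error of a single log2 ratio could be taken only from genes with more than 1 bright probe set, since the probe sets read the same RNA pool. There were 4 such members with 6 pairs of probe sets, and the spread between them (the root mean square difference divided by the square root of 2) was 0.75 over 24 differences, and 0.64 without Rplp0. Over all genes it was 0.61. Most single values above lie within the pooled spread: beyond 0.75 stood 2 genes for anti-TCR against mock (Rpl41 and Rps13), 2 with CSA (Rpl41 and Rpl37a), 4 with PKCi (Rpl41, Rpl37a, Rps18 and Rpl8) and 4 with Combo (Rpl41, Rpl37a, Rpl8 and Rps26). By comparison, from 6 differences each, the spread was 0.63 against mock, 0.64 with CSA, 1.07 with PKCi and 0.55 with Combo. Set against these, Rpl8 with PKCi lay within. Rps24 and Rps28 against mock, Rpl7a with CSA and Rplp2 with Combo then lay beyond. The spread holds differences in what the probes bind and does not include the variation between cultures.

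Rplp0, the stalk protein often used as a reference gene, was read in opposite directions by its bright probe sets. On chip type C (f-suffixed, the probe set with the higher mean) it read 2508.3 in mock, 3008.7 with anti-TCR, 3911.9 with CSA, 4434.3 with PKCi and 4022.8 with Combo. Its chip A probe set, without a suffix, read 4414.1, 2929.5, 1809.3, 717.9 and 1538.9. The first was lowest in mock and highest with PKCi, and the second the reverse. The log2 ratios were 0.26, 0.38, 0.56 and 0.42 on the first and -0.59, -0.70, -2.03 and -0.93 on the second, 2.59 apart with PKCi. Without a further bright probe set, the direction of Rplp0 mRNA is not settled by these arrays.

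Rps28 also split. Its unsuffixed probe set read 3511.1, 2225.8, 2427.1, 2225.2 and 2879.7, and its f-suffixed probe set on the same chip type 233.8, 409.8, 119.7, 78.1 and 226.6. The log2 ratios were -0.66 against 0.81 for anti-TCR over mock and 0.00 against -2.39 with PKCi. The f-suffixed probe set had its highest value on the anti-TCR array and its lowest on the PKCi array, as had Rpl41, also read on an f-suffixed probe set. Rps3 was read 3 times: its chip A probe set gave 3794.5, 2492.7, 2118.4, 1844.9 and 2283.6, and its 2 chip C probe sets, both i-suffixed, 758.3, 564.4, 590.3, 563.3 and 409.1 and 488.3, 631.3, 563.1, 342.7 and 604.8. Against mock the log2 ratios were -0.61, -0.43 and 0.37. Rpl10a was the member whose probe sets lay closest, at -0.05 and -0.54 against mock, -0.07 and 0.12 with CSA, -0.28 and -0.06 with PKCi, and 0.20 and 0.13 with Combo.

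**Figure D4:**
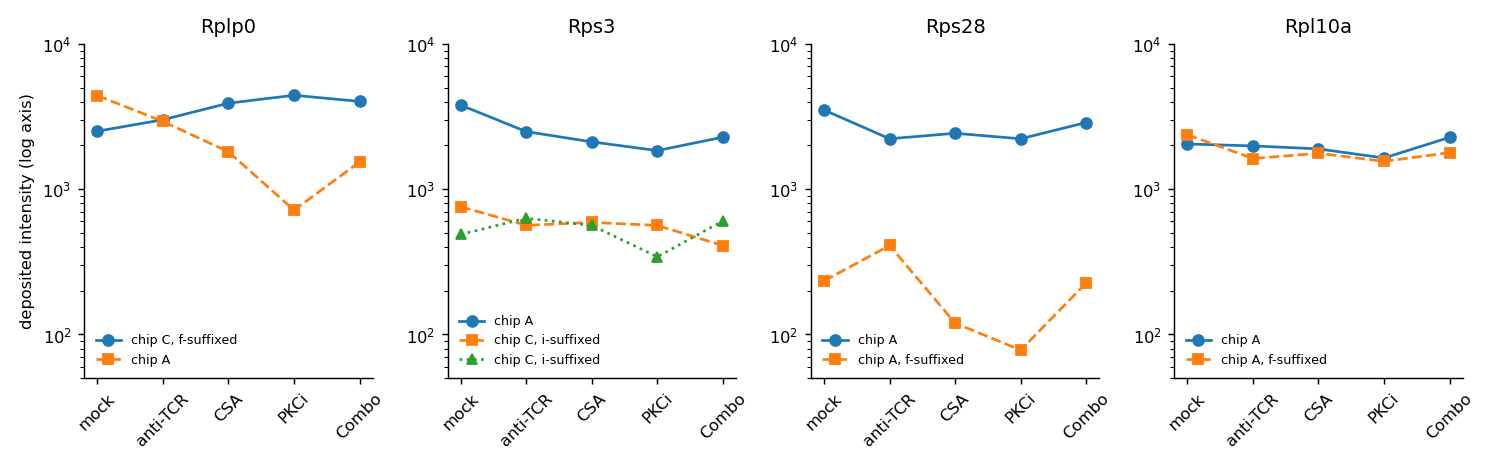
Deposited intensity (log axis) of every bright probe set of the 4 ribosomal protein genes that have more than 1, over the 5 treatments, 1 array per point. The lines of Rplp0 cross, from 2508.3 to 4434.3 between mock and PKCi on chip type C and from 4414.1 to 717.9 on chip type A, and those of Rps28 part at CSA and PKCi, while those of Rpl10a stay together.

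Other genes of translation were set beside the members as lists. Rpsa, another protein of the small subunit whose symbol falls outside the rule, read 1170.9 in mock, 1081.4 with anti-TCR, 1080.4 with CSA, 989.7 with PKCi and 964.4 with Combo, with log2 ratios of -0.11, 0.00, -0.13 and -0.17. The mRNAs outside the ribosome that are known to carry a TOP tract, among them elongation and initiation factors, had medians of -0.16, -0.30, -0.47 and -0.17 over 13 measured genes, 12 of them on chip type A. In each comparison at most 1 of the 13 was 2-fold higher (background 4.84 to 14.3% of all measured genes) and at most 1 was 2-fold lower (background 5.34 to 13.9%). Tpt1, the translationally controlled tumour protein, read 3832.0, 3009.8, 1849.6, 649.5 and 2202.9 and was 4.63-fold lower with PKCi. Eef2, the factor that moves the ribosome along the mRNA, read 1069.5, 521.8, 1543.9, 677.1 and 2457.0 on chip type C and was 4.71-fold higher with Combo (2.24), while its chip A probe set gave 0.83. Pabpc1, the poly(A) binding protein, read -0.55 against mock on chip type A and 1.41 on chip type C, so that here too the chip types gave opposite signs.

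Factors that build ribosomes in the nucleolus stood on the other side of 0 from the ribosomal proteins against mock. Of 27 measured, 9 were 2-fold higher with anti-TCR (background 11.4% of all measured genes) and 0 lower (background 13.9%), with a median of 0.76. Rrs1, which is needed to assemble the large subunit, read 125.1, 686.6, 630.4, 224.4 and 274.2 and was 5.49-fold higher. Its mock value lay under the chip A minimum of 204.4, so it entered this comparison through its higher anti-TCR value. Of 28 measured with an inhibitor, 1 was 2-fold lower with CSA (nucleolin, Ncl, 2.11-fold), 11 with PKCi and 6 with Combo, with medians of -0.30, -0.88 and -0.56. The background was 5.34, 9.75 and 5.46% of all measured genes. In each, 0 were higher (background 4.84, 14.3 and 7.95%). Nop58, a core protein of the box C/D particles that methylate ribosomal RNA, was 5.43-fold lower with PKCi (f-suffixed), and Gnl3, nucleostemin, 2.51-fold lower with Combo. Noc3l was at least 9.49-fold higher with anti-TCR on an f-suffixed probe set whose mock value lay below the floor, but its second probe set gave a log2 ratio of 0.71.

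Mitochondrial ribosomal proteins, which are coded in the nucleus and serve the ribosome of the mitochondrion, had medians of -0.15 against mock, 0.13 with CSA, 0.19 with PKCi and 0.20 with Combo over 35 to 40 measured genes. Mrps6 was 5.28-fold higher with anti-TCR, from 136.9 in mock to 723.5, and Mrps34 4.24-fold higher with PKCi, from 140.0 with anti-TCR to 593.1. The lower value of Mrps6 lay under the chip B minimum of 278 and that of Mrps34 under the chip A minimum of 204.4. Each thus entered its comparison through the higher value. Translation initiation factors had medians of 0.09, -0.04, -0.12 and -0.18 over 31 or 32 genes. Against mock 5 of them were 2-fold higher (background 11.4%) and 2 lower (background 13.9%). Scaled to equal 99th percentiles, their medians with CSA and PKCi turned to 0.12 and 0.11, and quantile normalization turned that with CSA to 0.021. Under the deposited scale, quantile, trimmed mean and median scaling, the median of the cytosolic ribosomal proteins lay below 0 in each inhibitor comparison, as did that of the TOP mRNAs outside the ribosome, and that of the mitochondrial ribosomal proteins lay above 0. Trimmed mean scaling stayed close to the deposited scale. After quantile normalization the cytosolic median with Combo was -0.0038, with 13 of 26 genes below 0, which gives no direction. Scaling to equal 99th percentiles turned only the cytosolic ribosomal proteins with Combo, given above. The lists lie on chip types A, B and C in different shares, so the medians carry the differences between chip types described above.

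**Figure D5:**
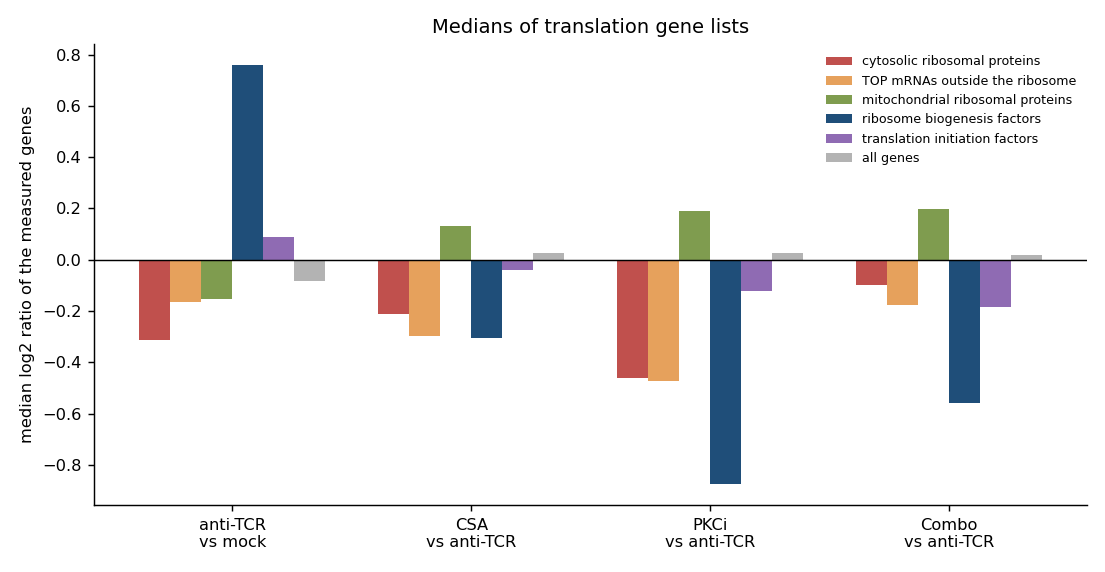
Median log2 ratio of the measured genes of each list in the 4 comparisons, with the median of all measured genes in grey. The biogenesis factors go from 0.76 against mock to -0.88 with PKCi, while the cytosolic ribosomal proteins read -0.31 and -0.46 and the mitochondrial ones -0.15 and 0.19.

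Ribosomal protein probe sets that the annotation gives several symbols, and which therefore fell outside the rule, also read mostly highest in mock and lowest with PKCi on chip type A. There were 52 such probe sets. On chip type A 30 were bright, with mock the highest for 24 and PKCi the lowest for 19, beside the 29.7% and 18.5% of all genes given above. Against anti-TCR their chip A medians were -0.14 with CSA and -0.19 with Combo, a sequence opposite to that of the members. Over all chip types 37 were measured for anti-TCR against mock, with a median of -0.35, and their medians with CSA, PKCi and Combo were -0.14, -0.32 and -0.19. The 4 measured on chip type C had a median of 1.16 against mock, so the chip types stood on opposite sides of 0 in these probe sets too.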

How the data were processed

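RNA of A.E7 cells was read on 15 oligonucleotide arrays, 5 treatments on each of 3 chip types. The authors' deposited intensity values are linear; the trimmed means, with 2% cut at each end, show that the arrays had been brought to one level. The software, the scaling rule and detection calls are not given in the sources used here. Groups come from the array titles. Of 36701 probe sets, 29131 carry 1 symbol, 724 several and 6846 none; the 43 members' symbols matched the current gene table. A comparison took a gene whose brighter value reached 4 times the floor (204.4, 278 and 220 on A, B and C), and 2-fold counted as a change. No test was made, as each treatment has 1 array per chip type. Promoters are RefSeq's (GRCm38.p6).

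Genes were named by a rule: members past 2-fold, the 5 highest and 5 lowest of each comparison, the 5 of highest mean, paralogs, members of known special roles, members whose probe sets disagreed, and the 2 highest and 2 lowest of a partner list; other members and partner genes were picked with their values in view. The members and lists were chosen with earlier results of these data known. The steps were tested on simulated data. Python 3.11.15, numpy 2.4.6, pandas 2.3.3, scipy 1.17.1 and matplotlib 3.10.9 were used. Alternatives were quantile, median, trimmed mean and 99th percentile scaling, other floors and minimums, the mean of probe sets, leaving out suffixed probe sets, and single chip types.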

Additional observations from a re-analysis of the deposited data

How the results depend on the processing

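No paired analysis was possible because each treatment has a single array on each chip type. The floor at 0.5 or 2 times its value and trimmed mean scaling changed no count of members past 2-fold and left the medians at -0.31, -0.21, -0.46 and -0.10. Averaging the probe sets of a gene and chip type A alone each gave 4 genes lower with PKCi in place of 3 and a Combo median of -0.16, and the other counts were equal. With chip type A alone the added gene was Rplp0, read on its chip A probe set. Quantile normalization gave 2 genes higher against mock and medians of -0.057 against mock, -0.090 with CSA, -0.14 with PKCi and -0.0038 with Combo, and 2 genes lower with PKCi in place of 3. Median scaling gave 2 higher against mock and a Combo median of -0.026. A minimum of 8 times the floor left 22 genes, with 0 higher against mock, 1 lower with CSA, 2 lower with PKCi and 1 lower with Combo. Without suffixed probe sets, which left 19 genes, the counts against mock, with CSA and with Combo were 0, 1 and 1 as well. In both, Rpl41 was no longer measured. Without suffixed probe sets 3 genes were lower with PKCi, because Rplp0, read on its chip A probe set, took the place of Rpl41. With no minimum all 43 genes entered, with medians of 0.00 against mock, -0.036 with CSA, -0.28 with PKCi and 0.00 with Combo, and a spread between probe sets of 0.44. Scaling to equal 99th percentiles and chip type C alone were added after the data were seen. The former gave medians of -0.17 against mock, -0.11 with CSA and -0.10 with PKCi, turned Combo to 0.027, and left 1 gene lower with CSA and 2 with PKCi; it moved the median of all genes by 0.12, 0.28 and 0.22 with CSA, PKCi and Combo, and the share of higher among changed genes from 47.6, 59.4 and 59.3% to 60.3, 76.3 and 79.3%. Chip type C alone, with 8 genes, turned the median against mock to 0.26 and with Combo to 0.068, and gave -0.053 with CSA and -0.15 with PKCi, with 0 genes higher against mock, 0 lower in each inhibitor comparison and a spread of 0.45. No log2 ratio of a named member that was past 2-fold in the main results changed sign in any of these. Members that were not past 2-fold there did change sign, Rplp0 among them. With PKCi Rplp0 read 0.56 in the main results, and -2.03 with chip type A alone or without suffixed probe sets. After quantile normalization other members turned as well. Rpl7 with PKCi went from -0.21 to 0.30, Rps3a1 with CSA from -0.085 to 0.17 and Rps4x against mock from -0.36 to 0.04. The number of arrays, 1 per treatment and chip type, limits the precision of all values.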
